A study of Rattus norvegicus with 8 samples.

Results

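Mural cells are the contractile cells that wrap blood vessels: pericytes lie on capillaries and vascular smooth muscle cells on larger vessels. They are recognised by surface proteins such as the proteoglycan NG2 and the adhesion molecule CD146, by regulators of G-protein signaling that damp the response to vasoactive receptors, by gap junction proteins and by muscle-type filaments. None of these proteins belongs to mural cells alone, and several are also made by cultured connective tissue cells. The expression of 9 such genes (Mcam, Cspg4, Susd5, Rgs5, Rgs4, Gja4, Des, Nrip2 and Plac9) was examined in annulus fibrosus cells (AFCs) under cyclic mechanical stretch (CMS). The genes were picked by name out of the 31699 rows of the deposited table, and all 9 were found. Their difference between the groups was known when they were picked, so it is described here without a test.

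AFCs are the cells of the outer, fibrous ring of the intervertebral disc. They were isolated from Sprague Dawley rats, several animals being pooled for each isolation, and were used after passaging in culture. All 8 samples received CMS, 4 of them (Lv-Ctrl) after infection with the lentiviral vector pLVX-shRNA-Puro and 4 (Lv-Piezo1) after infection with pLVX-shRNA-Puro-Piezo1, which carries a short hairpin RNA against the mechanosensitive ion channel gene Piezo1. No unstretched or uninfected cells are among the samples analysed here, and the methods give male rats of 3 months for the animal model without repeating age or sex for these cultures. The labels do not tie a sample to its own isolation, so the spread between samples may be partly technical.

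Each value is a TPM, a transcript abundance scaled to the same total in every sample and corrected for transcript length, so that levels of different genes can be set side by side. TPM keeps no sequencing depth, and the depth of the samples is therefore unknown. A total of 13103 genes with a mean of at least 1 TPM were tested with limma on log2(TPM + 1), and a gene was called at a Benjamini-Hochberg adjusted p below 0.05 together with a log2 fold change of at least 1. Piezo1 measured 31.1, 33.0, 26.7 and 29.5 TPM in Lv-Ctrl replicates 1 to 4 and 38.1, 37.7, 40.2 and 41.4 TPM in Lv-Piezo1 replicates 1 to 4. The targeted transcript was thus higher where the label names a knockdown, and directions below follow the labels as given, with Lv-Piezo1 set against Lv-Ctrl. The tested genes as a whole had a median log2 fold change of 0.14. Lv-Ctrl replicate 2 stood apart in skeletal muscle transcripts, with 22.1 TPM of the muscle actin gene Acta1 against 1.59 to 2.14 TPM in the other Lv-Ctrl samples.

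All 9 genes had a higher mean in the Lv-Piezo1 samples, but their sizes and levels differed widely. Mcam was 8.67-fold higher and had the largest log2 difference with a pseudocount of 1. Rgs4 was 17.5-fold higher by the ratio of means, from a level near 0. Des and Gja4 were a little over 3-fold higher, Cspg4 and Susd5 about 2-fold higher, and Rgs5 was at or near 0 in both groups. The groups did not overlap for 7 of the 9 genes and overlapped for Rgs5 and Plac9. Of the 7 genes that reached the level for testing, 6 did not overlap with Lv-Piezo1 higher, where the share over all tested genes was 39.8% (54.2% in either direction), and 3 (Mcam, Gja4 and Des) were past the call rule in that direction, where the share over all tested genes was 4.91%. None was past it in the other direction, which 2.76% of all tested genes were. The genes were selected on this contrast, so nothing is read from these counts. The median log2 difference over the 9 genes was 0.98.

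**Figure D1:**
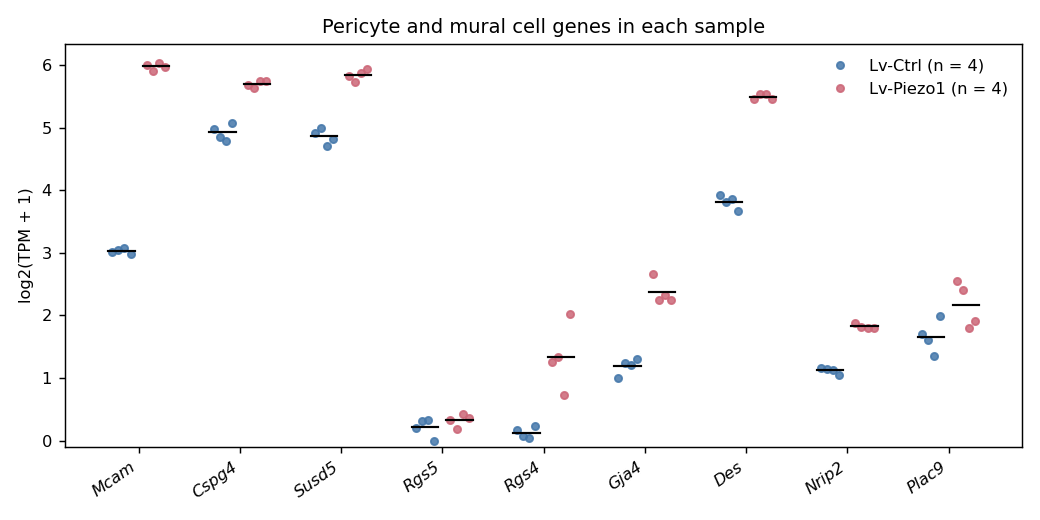
Level of each pericyte and mural cell gene in each of the 8 samples as log2(TPM + 1), with 4 points per group and a line at the group mean. Mcam ranks 4 in level among the 9 genes in Lv-Ctrl and 1 in Lv-Piezo1, while Rgs5 lies near 0 in both groups.

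Among the surface proteins, Mcam encodes CD146, an adhesion molecule of the immunoglobulin superfamily found on pericytes, smooth muscle and endothelium. It measured 7.1, 7.28, 7.41 and 6.89 TPM in Lv-Ctrl replicates 1 to 4 and 62.9, 59.2, 64.7 and 62.0 TPM in Lv-Piezo1 replicates 1 to 4. The means were 7.17 ± 0.226 and 62.2 ± 2.29 TPM (SD, n = 4 each), a log2 difference of 2.95. The lowest Lv-Piezo1 sample lay far above the highest Lv-Ctrl sample, and the coefficient of variation was 3.15% in Lv-Ctrl and 3.69% in Lv-Piezo1. In Lv-Ctrl 36.1% of the tested genes lay below Mcam, and in Lv-Piezo1 83.0% did.

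Cspg4 encodes the membrane-spanning chondroitin sulfate proteoglycan NG2, the other classic surface marker of pericytes. It was already well expressed in Lv-Ctrl, at 30.7, 27.9, 26.6 and 32.8 TPM in replicates 1 to 4. It measured 50.2, 48.8, 52.7 and 52.6 TPM in Lv-Piezo1, so that every sample of one group lay above every sample of the other. The means were 29.5 ± 2.77 and 51.1 ± 1.92 TPM (SD, n = 4 each), a ratio of 1.73 and a log2 difference of 0.78. Susd5, which encodes a transmembrane protein with a sushi domain, lay at nearly the same level as Cspg4 in Lv-Ctrl. It measured 29.2, 31.0, 25.1 and 27.4 TPM in Lv-Ctrl and 55.5, 52.0, 57.5 and 60.4 TPM in Lv-Piezo1. The means were 28.2 ± 2.53 and 56.3 ± 3.56 TPM (SD, n = 4 each), a log2 difference of 0.98 that lay just under the threshold of 1, and the groups did not overlap.

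Relatives of these surface genes were examined for comparison, together with relatives of Nrip2. Of 10 such genes, 7 were tested and 0 were called by limma. An unadjusted p below 0.05 was reached by 6 of them, and an adjusted p below 0.05 by 6, 5 higher and 1 lower, as by 58.2% of all tested genes. Their median log2 fold change was 0.42, and over all tested genes 7.67% were called in either direction.

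Rgs5 and Rgs4 encode small proteins that speed the hydrolysis of GTP by G-protein alpha subunits and so shorten signaling from their receptors. Rgs5 is among the most used transcript markers of pericytes. Here it measured 0.15, 0.24 and 0.26 TPM in Lv-Ctrl replicates 1 to 3 and was listed at 0 in replicate 4, and it measured 0.25, 0.14, 0.35 and 0.29 TPM in Lv-Piezo1. The groups covered the same low range. Rgs4 was as low in Lv-Ctrl, at 0.13, 0.05, 0.03 and 0.17 TPM. In Lv-Piezo1 it measured 1.39, 1.52, 0.65 and 3.08 TPM, every value above those of Lv-Ctrl, with a wide spread in which replicate 4 was highest and replicate 3 lowest. The means of Rgs4 were 0.095 ± 0.0661 and 1.66 ± 1.02 TPM (SD, n = 4 each). The log2 difference of Rgs4 was 1.21 with the pseudocount of 1 and 3.05 with a pseudocount of 0.1, so its size rests on that choice. The mean over the 8 samples was below 1 TPM for both genes, and neither entered the test.

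Rgs5 and Rgs4 are direct neighbours among protein-coding genes in the RefSeq order of the rat genome (GRCr8). The sequences before their starts are shown because these neighbours were alike near 0 in Lv-Ctrl and apart in Lv-Piezo1, together with that of Gja4, the connexin gene of the set. These 3 genes were chosen for display after their values were seen. Each sequence is the 250 bases before the start of the transcript, 5′ to 3′ on the strand of the gene, from RefSeq on GRCr8, and capitals mark the E-box letters CANNTG.
Rgs5 (chr13:84380827-84381076, plus strand): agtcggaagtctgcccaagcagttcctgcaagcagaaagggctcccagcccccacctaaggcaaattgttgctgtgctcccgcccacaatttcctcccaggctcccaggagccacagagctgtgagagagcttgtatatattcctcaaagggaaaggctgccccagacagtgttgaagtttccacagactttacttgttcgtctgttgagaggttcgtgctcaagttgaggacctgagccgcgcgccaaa
Rgs4 (chr13:84475885-84476134, minus strand): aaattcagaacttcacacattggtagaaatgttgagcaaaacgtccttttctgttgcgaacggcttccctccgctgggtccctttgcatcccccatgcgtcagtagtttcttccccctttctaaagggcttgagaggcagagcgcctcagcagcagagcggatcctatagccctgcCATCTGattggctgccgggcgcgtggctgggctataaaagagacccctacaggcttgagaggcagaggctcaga
Gja4 (chr5:144920325-144920574, minus strand): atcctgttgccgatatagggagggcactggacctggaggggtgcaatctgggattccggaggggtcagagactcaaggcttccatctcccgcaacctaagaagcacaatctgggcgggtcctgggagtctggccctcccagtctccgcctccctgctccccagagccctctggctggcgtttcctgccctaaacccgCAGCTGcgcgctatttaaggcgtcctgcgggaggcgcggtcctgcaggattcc
Promoter windows of 300 bases, reaching 50 bases past the start, were found for 7 of the 9 genes. The E-box letters stood in 4 of these 7 windows (Gja4, Susd5, Des and Rgs4) and in 72.1% of all 33469 rat windows. The CArG box, the DNA element bound by serum response factor at many smooth muscle genes, was found on either strand in 0 of the 7 and in 1.64% of all windows. The letters TGGGAA, the core of the element bound by the Notch effector RBPJ, stood on either strand in 1 of the 7 (Plac9) and in 25.7% of all windows. A match, or its absence from so short a window, is a description only.

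Transcripts of several other Rgs genes were more abundant in these AFCs than those of Rgs4 and Rgs5. Of 19 other Rgs genes 8 were tested, and 1 was called by limma against 7.67% of all tested genes in either direction. That gene was Rgs16, which rose from 5.42 ± 0.266 to 70.0 ± 2.77 TPM (SD, n = 4 per group). By limma its log2 fold change was 3.47 with a standard error of 0.05 and an adjusted p of 1.5e-10. Rgs2, a regulator of receptors that signal through Gq, was the most abundant, with 137 ± 12.7 TPM in Lv-Ctrl and 177 ± 14.1 TPM in Lv-Piezo1, and Rgs3 followed with 72.0 ± 2.43 and 122 ± 1.96 TPM. All 8 had an adjusted p below 0.05 with Lv-Piezo1 higher, as 41.9% of all tested genes did, 7 of them by less than the fold threshold. Rgs4 and Rgs5 were a minor part of the family: Rgs4 held 0.0104% to 0.0536% of the summed Rgs TPM in Lv-Ctrl and 0.136% to 0.608% in Lv-Piezo1, and Rgs5 held at most 0.0903% in any sample. Rgs16 held 1.66% to 1.91% in Lv-Ctrl and 14% to 14.6% in Lv-Piezo1.

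Gja4 encodes connexin 37, a gap junction protein of arterial endothelium and of mural cells, through which neighbouring cells exchange ions and small molecules. It measured 1.01, 1.35, 1.3 and 1.47 TPM in Lv-Ctrl and 5.31, 3.76, 4.04 and 3.77 TPM in Lv-Piezo1. The groups did not overlap, and replicate 1 was the highest of the Lv-Piezo1 samples. The means were 1.28 ± 0.195 and 4.22 ± 0.738 TPM (SD, n = 4 each), a ratio of 3.29 and a log2 difference of 1.19.

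The difference of Gja4 stood beside a wider change among the connexins. Of 19 other connexin genes 5 were tested and all 5 were called by limma, 4 higher and 1 lower. Gja1, which encodes connexin 43 and was by far the most abundant, fell from 737 ± 83.2 to 288 ± 17.6 TPM (log2 fold change -1.35 ± 0.08 SE, adjusted p = 1.3e-06 from limma). Gja5, which encodes connexin 40 and with connexin 37 is typical of arteries, rose from 0.348 ± 0.045 to 9.58 ± 0.443 TPM (log2 fold change 2.97 ± 0.08 SE, adjusted p = 6.2e-09 from limma). Gjc1, which encodes connexin 45 of vascular smooth muscle, rose from 4.95 ± 0.262 to 13.8 ± 0.446 TPM, and Gjb2 rose from 3.30 ± 0.314 to 10.7 ± 0.297 TPM (SD, n = 4 per group). Of the 5 calls, 4 held after median-ratio scaling, and 4 with quantile normalization. The share of Gja4 in the summed connexin TPM went from between 0.125% and 0.207% in Lv-Ctrl to between 1.07% and 1.67% in Lv-Piezo1, and that of Gja1 from between 98.2% and 98.6% to between 86.6% and 87.7%. Connexin 43 was thus still the main connexin transcript in every sample.

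Des encodes desmin, the intermediate filament protein of muscle cells and of many pericytes. It measured 14.2, 13.1, 13.5 and 11.7 TPM in Lv-Ctrl and 42.8, 45.3, 45.5 and 43.1 TPM in Lv-Piezo1. The groups lay well apart, and both were tight. The means were 13.1 ± 1.06 and 44.2 ± 1.4 TPM (SD, n = 4 each), a ratio of 3.37 and a log2 difference of 1.68. Desmin is also a skeletal muscle protein. The skeletal muscle actin gene Acta1 measured 2.14, 22.1, 1.74 and 1.59 TPM in Lv-Ctrl and 9.83, 8.51, 7.94 and 8.28 TPM in Lv-Piezo1, so that it was higher in Lv-Piezo1 than in every Lv-Ctrl sample but replicate 2. Its log2 fold change was 1.01 with all samples (adjusted p = 0.20 from limma) and 1.77 without Lv-Ctrl replicate 2 (adjusted p = 5.3e-06 from limma). The log2 difference of Des without that sample was 1.68, and the part of skeletal muscle transcripts in it was not tested.

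Of 19 other intermediate filament genes 10 were tested and 4 were called by limma, all 4 higher, where 4.91% of all tested genes were called higher. Nes, which lay at or below 1 TPM in every Lv-Ctrl sample and entered the test through its level in Lv-Piezo1, rose from 0.840 ± 0.12 to 5.92 ± 0.383 TPM, and Synm, which encodes the desmin partner synemin, from 1.55 ± 0.0716 to 5.43 ± 0.431 TPM. The epithelial keratin gene Krt7 rose from 4.68 ± 0.821 to 15 ± 0.733 TPM, and the nuclear lamin gene Lmnb1 from 6.31 ± 0.686 to 15.5 ± 0.679 TPM (SD, n = 4 each, adjusted p at most 1.9e-06 from limma for these 4 genes). The call of Lmnb1 was lost after quantile normalization (log2 fold change 0.99). Vim, the vimentin gene of connective tissue cells, held 79.7% to 81.0% of the summed TPM of the family in Lv-Ctrl and 82.7% to 83.0% in Lv-Piezo1, against 0.624% to 0.741% and 1.43% to 1.52% for Des.

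**Figure D2:**
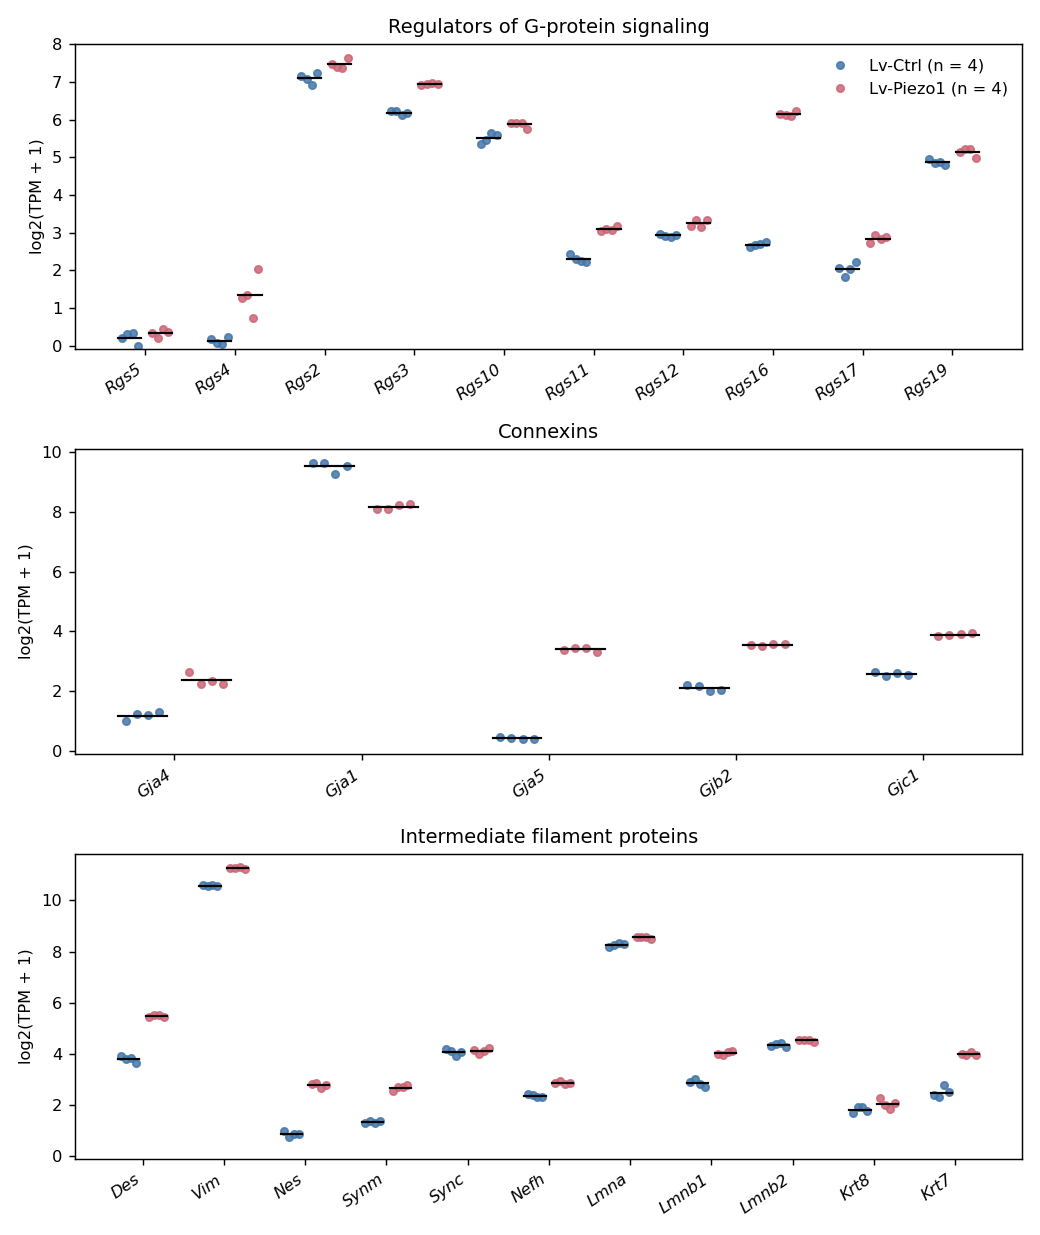
Levels of Rgs5 and Rgs4, of Gja4 and of Des beside tested genes of their families, as log2(TPM + 1) in each of the 4 samples per group, with a line at the group mean. Rgs2 and Rgs3 lead the first family and Rgs16 shows the widest gap, Gja1 falls while the other connexins are higher in Lv-Piezo1, and Vim stands far above Des.

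Nrip2 encodes a nuclear receptor-interacting protein. It was low and very even, at 1.23, 1.21, 1.19 and 1.08 TPM in Lv-Ctrl and 2.68, 2.53, 2.49 and 2.5 TPM in Lv-Piezo1. The means were 1.18 ± 0.067 and 2.55 ± 0.0883 TPM (SD, n = 4 each), a ratio of 2.17. The log2 difference was 0.71 with the pseudocount of 1 and 1.05 with 0.1. The groups did not overlap. Plac9, which encodes a small secreted protein, measured 2.25, 2.04, 1.55 and 2.99 TPM in Lv-Ctrl and 4.86, 4.28, 2.47 and 2.78 TPM in Lv-Piezo1. Here the groups overlapped, because Lv-Piezo1 replicates 3 and 4 lay below the highest Lv-Ctrl sample. The means were 2.21 ± 0.598 and 3.60 ± 1.15 TPM (SD, n = 4 each), a log2 difference of 0.50.

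The order of the 9 genes by level also differed between the groups. In Lv-Ctrl, Cspg4 and Susd5 were the highest and their samples overlapped, followed by Des, Mcam and Plac9, then by Gja4 and Nrip2, which overlapped, and by Rgs5 and Rgs4, which overlapped as well. In Lv-Piezo1, Mcam came first and overlapped with Susd5, and Susd5 overlapped with Cspg4. Des came next and was separate from both its neighbours. Gja4, Plac9, Nrip2 and Rgs4 followed, each overlapping with the next, and Rgs5 was last. Summed over the 9 genes, the level was 76.9 to 85.9 TPM in the Lv-Ctrl samples and 217 to 231 TPM in the Lv-Piezo1 samples, nearly all of it from Mcam, Susd5, Cspg4 and Des.

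**Figure D3:**
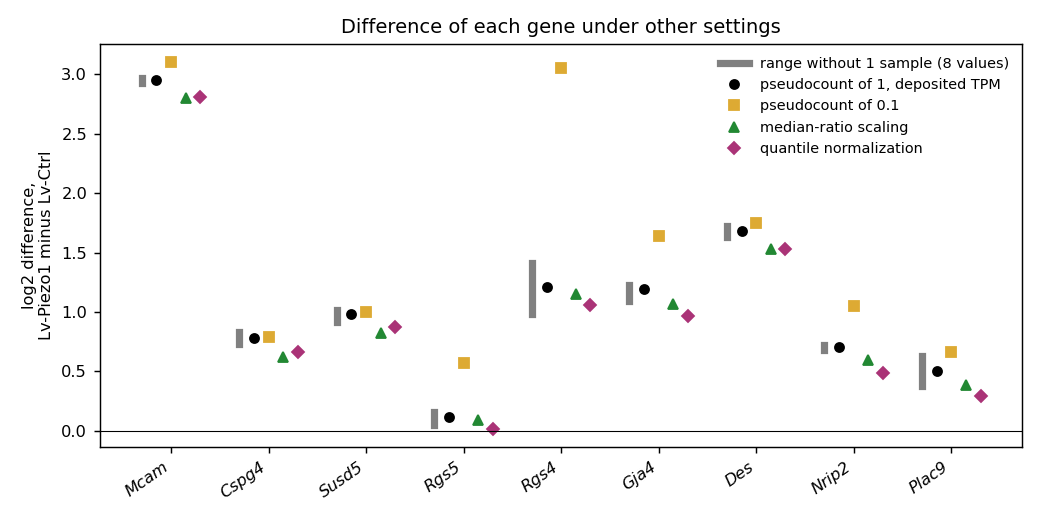
Log2 difference between Lv-Piezo1 and Lv-Ctrl for each of the 9 genes, on the deposited TPM with a pseudocount of 1, with a pseudocount of 0.1, and on TPM rescaled by median ratios or by quantiles. The grey bar is the range when 1 of the 8 samples is left out. Every value lies above 0, and Rgs4 moves most, from 1.21 to 3.05 with the smaller pseudocount.

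A wider list of 40 other genes used to mark pericytes and mural cells did not move one way. Of the 38 with a row, 29 were tested, 10 were called by limma against 7.67% of all tested genes, and of these 7 were higher and 3 lower. After median-ratio scaling 4 were higher and 4 lower, and after quantile normalization 5 and 5. The median log2 fold change of the 29 was -0.03, beside 0.14 for all tested genes. The deepest falls were those of Kcnj8, from 326 ± 5.61 to 39.1 ± 2.61 TPM (log2 fold change -3.03), and Abcc9, from 73.7 ± 10.1 to 12.3 ± 1.04 TPM (log2 fold change -2.49). These 2 genes encode the pore and the regulatory subunit of the ATP-sensitive potassium channel of mural cells. Itga7, a laminin receptor subunit, fell from 109 ± 11.6 to 47.1 ± 3.62 TPM.

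The rises in the wider list were led by Esam, a junctional adhesion molecule, from 0.203 ± 0.114 to 5.68 ± 0.893 TPM, and by Epas1, which encodes the hypoxia-inducible factor HIF-2 alpha, from 6.24 ± 0.948 to 31.7 ± 1.8 TPM. They were followed by Cox4i2, a subunit of cytochrome c oxidase, from 24.2 ± 3.66 to 65.4 ± 5.79 TPM, and by the forkhead factor gene Foxs1, from 17.5 ± 0.947 to 45.3 ± 1.86 TPM. Cd248, which encodes endosialin, rose from 15.2 ± 0.603 to 33.5 ± 1.56 TPM with a log2 fold change of 1.09, a call that was lost after median-ratio scaling (0.93) and quantile normalization (0.94). The adjusted p of these 5 rises and of the 3 falls was at most 4.2e-06 from limma (SD, n = 4 each throughout). Pdgfrb, the receptor through which vessels recruit pericytes, had 106 ± 4.48 TPM in Lv-Ctrl and 118 ± 2.28 TPM in Lv-Piezo1, a log2 fold change of 0.15 that was -0.01 after median-ratio scaling. Anpep, which encodes aminopeptidase N (CD13), had 40.7 ± 2.92 and 47.8 ± 2.45 TPM.

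**Figure D4:**
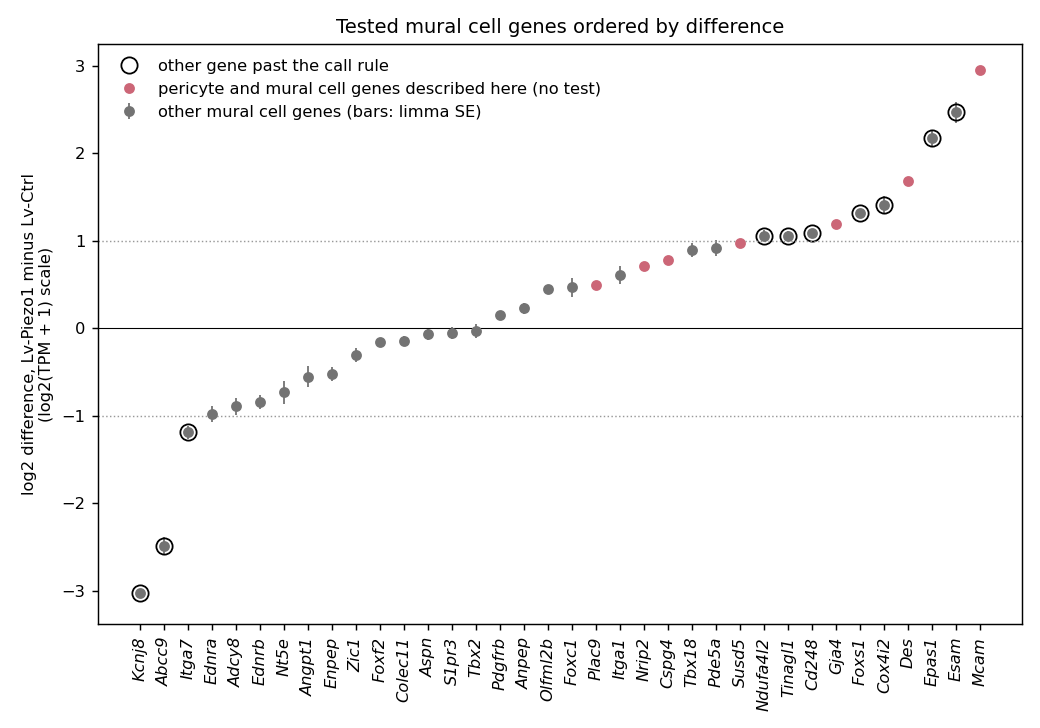
Log2 difference between Lv-Piezo1 and Lv-Ctrl for the 29 other tested mural cell genes (grey, bars are the standard error from limma, rings mark calls) and for the 7 tested genes described here (red, no test, chosen with this difference known), ordered by size. The other mural cell genes spread from Kcnj8 at -3.03 to Esam at 2.47.

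The label of the 9 genes was set against further defining markers. Beside the near absence of Rgs5, the vascular Notch receptor gene Notch3 had 0.13 to 0.22 TPM in Lv-Ctrl and 1.3 to 1.67 TPM in Lv-Piezo1, the pericyte gene Vtn was listed at 0 in 7 of the 8 samples, and the Notch effector gene Heyl was listed at 0 in all 8. A total of 7 of the 38 other mural cell genes stayed under 1 TPM in every sample. Pdgfrb, Anpep and Cspg4 were well expressed in both groups, and connective tissue cells also make them. Other genes of the wider list were also well expressed. Colec11 had means of 1496 and 1354 TPM in Lv-Ctrl and Lv-Piezo1, and Kcnj8 had 326 and 39.1 TPM. Enpep had 190 and 131 TPM, and Ndufa4l2 had 110 and 229 TPM. The data thus go partly against the label, and the 9 genes are called mural cell genes by their use as markers only. In bulk RNA, a change in the share of cells that make a transcript and a change in the amount per cell cannot be told apart.

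Many smooth muscle contractile genes, which mature vascular smooth muscle shares with activated connective tissue cells, were higher in Lv-Piezo1 as well. Of 20 listed genes 17 were tested and 10 were called by limma, all 10 higher, where 4.91% of all tested genes were called higher. The median log2 fold change of the 17 was 2.01, and of the 7 not called, Itga8 was the 1 with a lower mean in Lv-Piezo1 (86.6 ± 10 and 65.7 ± 5.41 TPM). Their summed level was 3035 to 3105 TPM in Lv-Ctrl and 8452 to 8805 TPM in Lv-Piezo1. Acta2, the smooth muscle actin gene, rose by 4.69 on the log2 scale, Myh11 (smooth muscle myosin) by 4.13, Cnn1 (calponin) by 3.95 and Tagln (transgelin) by 3.63, each with an adjusted p of at most 2.4e-10 from limma. The part of such cells in the difference of Mcam, Gja4 and Des was not tested.

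Markers of other cells that carry Mcam, Gja4, Cspg4 or Des were mostly at or near 0. Among 14 endothelial genes with a row, 12 stayed under 1 TPM in every sample, Pecam1 had at most 0.21 TPM and Cdh5 was listed at 0 in 7 of 8 samples. The list summed to 26.9 to 35.5 TPM in Lv-Ctrl and 34.0 to 38.9 TPM in Lv-Piezo1, most of it from Egfl7, and 1 of its 2 tested genes was called, Flt1 (1.67 ± 0.159 to 5.59 ± 0.458 TPM). Among 11 Schwann and glial genes 10 stayed under 1 TPM in every sample, Sox10 was listed at 0 in all 8, and S100b, which cartilage-type cells also make, fell from 328 ± 5.39 to 141 ± 4.47 TPM. The list summed to 321 to 332 TPM in Lv-Ctrl and 140 to 150 TPM in Lv-Piezo1. Of 15 skeletal muscle genes with a row 6 were tested, Myod1 and Pax7 were listed at 0 in every sample, and 1 was called, Mb (1.76 ± 0.523 to 0.362 ± 0.244 TPM), a call lost without Lv-Ctrl replicate 4 (Mb log2 fold change -0.90) or without Lv-Piezo1 replicate 2 (-0.93) or 3 (-0.99). The list summed to 13.6 to 64.4 TPM in Lv-Ctrl, the highest in replicate 2, and to 21.4 to 24.6 TPM in Lv-Piezo1.

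Of 13 macrophage genes 9 stayed under 1 TPM in every sample and 5 were listed at 0 throughout. Ptprc, the pan-leukocyte gene, had at most 0.01 TPM. Fcer1g, which encodes the gamma chain of Fc receptors, had 116 ± 2.97 and 113 ± 3.4 TPM in Lv-Ctrl and Lv-Piezo1, and Cd14, a receptor for bacterial lipopolysaccharide, had 20.9 ± 0.324 and 25.8 ± 1.91 TPM. Cd68, a lysosomal gene, was the 1 of 3 tested genes to be called, from 0.955 ± 0.899 to 12.3 ± 0.901 TPM, and the list summed to 136 to 143 TPM in Lv-Ctrl and 149 to 155 TPM in Lv-Piezo1. Of 14 annulus and tendon genes 12 were tested and 4 were called, where 7.67% of all tested genes were. Thbs4 (56.4 ± 2.95 to 529 ± 15.9 TPM) and Comp (0.738 ± 0.216 to 2.86 ± 0.221 TPM, a call lost after quantile normalization at 0.93) rose, and Cilp (6.65 ± 0.963 to 1.45 ± 0.229 TPM) and Dcn (1456 ± 69.3 to 519 ± 14.9 TPM) fell. By limma, 7 of the 12 had an adjusted p below 0.05 with Lv-Piezo1 higher and 4 with it lower. In either direction 58.2% of all tested genes did. This list summed to 7405 to 8330 TPM in Lv-Ctrl and 11331 to 12119 TPM in Lv-Piezo1, with Col1a1 at 3282 ± 137 and 5835 ± 103 TPM. Scx, a tendon transcription factor gene, had 30.1 ± 5.05 and 56.8 ± 10.5 TPM, while Tnmd was listed at 0 in 7 samples. Lower in Lv-Piezo1 without a call were Mkx, another such gene, at 25.4 ± 2.89 and 14.6 ± 1.41 TPM, and Fmod. Fmod had 68.4 ± 4.45 and 34 ± 1.4 TPM, a log2 fold change of -0.99. Of 13 nucleus pulposus and chondrocyte genes 4 were tested and 1 was called, Cd24 (3.79 ± 0.207 to 21.9 ± 1.91 TPM), with Acan at 31.6 ± 2.95 and 47.1 ± 1.82 TPM and Col2a1 at no more than 0.59 TPM in any sample. That list summed to 39.2 to 45.2 TPM in Lv-Ctrl and 73.0 to 80.9 TPM in Lv-Piezo1. AFCs of the fibrous ring, as the label gives them, thus carried fibrous matrix transcripts throughout.

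The genes that flank the 9 genes on their chromosomes are given for comparison. Of the 32 genes that lie within 2 places on either side, 27 had a row, 20 were tested and 1 was called by limma, where 7.67% of all tested genes were, while 12 had an adjusted p below 0.05 with Lv-Piezo1 higher, where 41.9% of all tested genes did. Their median log2 fold change was 0.27. Beside Des, Speg and Dnpep had log2 fold changes of 0.32 and 0.26, and beside Plac9, Anxa11 had -0.76. Beside Mcam, Cbl had 0.28 and its adjusted p was 0.14 from limma.

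The named genes whose profiles over the 8 samples lay closest to each of the 9 genes were found by the root mean square distance of centred log2(TPM + 1) among 11239 other tested genes. With 2 groups this distance mainly follows the size of the group difference. Rpgr (2.62 to 25.7 TPM, distance 0.0558) and Gja5 (distance 0.0654) were closest to Mcam, and Trpv2 (distance 0.0588) and Sdc3 (0.0683) to Des. Rai14 (distance 0.0314) and Actn1 (0.0347), both of which encode proteins of the actin cytoskeleton, were closest to Susd5, and Atl2 (0.0405) and Paqr4 (0.0483) to Cspg4. Ankle1 (distance 0.087) and Tcfl5 (0.101) were closest to Gja4, Grn (0.0272) was among the 2 closest to Nrip2, and Hoxa4 (0.134) and Ccsap (0.143) were closest to Plac9, whose spread within groups was the widest of the tested 7.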

How the data were processed

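RNA-seq was made from 8 samples of stretched rat AFCs, 4 per vector. The authors discarded adapter, poly-N and poor reads, and used HISAT2 for mapping and StringTie for transcripts. Their deposited table holds TPM with 2 decimals and 1 column per sample, and 2 columns of group means that were not used. The methods name FPKM, and the submitters' processing notes name DESeq2 and mm10, a mouse build, although 30560 of the 31699 rows carry rat Ensembl identifiers. The genome build used is therefore not settled here, and RefSeq positions (GRCr8) served only for gene order and promoter sequences.

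From these, log2(TPM + 1) was compared with limma 3.58.1 in R 4.3.3 (trend, empirical Bayes, Benjamini-Hochberg adjustment) over the 13103 genes with a mean of at least 1 TPM. No count model was fitted, because TPM is not a count. The fit was tested on simulated data. The members and the gene lists were chosen with earlier results of these data known. Genes were named if members, if among the 5 largest called rises or falls of a list, if a marker or target set by name, if family members over 5 TPM, or if nearest to a member on the chromosome or in profile. Speg, Dnpep, Anxa11, Cbl, Egfl7, Heyl, Colec11, Enpep, Ndufa4l2, Fcer1g, Cd14, Itga8, Mkx, Fmod and the muscle genes other than Mb were named after their values were seen. None of the 7 member promoters found held a CArG box, the planned ground for printing one, so 3 others were printed. Alternatives were another pseudocount, other filters and scalings, no trend, a replicate block, no fold threshold and leaving out each sample. Proteins were not compared. Symbols of unnamed loci (LOC, RGD and clone names) were left out of the profile search. Some named-gene results are not reported here.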

Additional observations from a re-analysis of the deposited data

Results flagged for a closer look

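Skeletal muscle transcripts were far higher in Lv-Ctrl replicate 2 than in the other Lv-Ctrl samples. Acta1 measured 22.05 TPM there against 1.59 to 2.14 TPM in the other samples of the group, Ckm 13.99 against 1.31 to 1.93 TPM, Tnnc2 8.44 against 0.85 to 1.06 TPM and Myh4 4.26 against 0.5 to 0.59 TPM. Smaller gaps set apart S100b in Lv-Piezo1 replicate 3 (147.95 TPM), Dcn in Lv-Ctrl replicate 3 (1352.44 TPM), Rgs10 in Lv-Piezo1 replicate 4 (53.27 TPM) and Acta2 in Lv-Piezo1 replicate 4 (1283.86 TPM). In each case the gap to the nearest sample, divided by the range of the 4, exceeded Dixon's critical value, which chance exceeds in about 1 of 20 groups. A total of 124 groups were examined and 8 held such a sample. None of the 9 pericyte and mural cell genes did.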

How the results depend on the processing

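The 9 pericyte and mural cell genes stayed higher in Lv-Piezo1 with a pseudocount of 0.1, after median-ratio scaling, after quantile normalization and without each sample. The number with a log2 difference of at least 1 was 4, with 3 to 5 over these settings. With only TPM, depth sets no stated limit, and values of Rgs5 and Rgs4 near 0 are least certain. The larger changes in the counts of called genes were as follows, and smaller ones are not all listed. Without the fold threshold, calls were 7626 of all genes, 26 other mural cell genes, 17 contractile, 8 Rgs, 8 intermediate filament, 6 relatives of Mcam, Cspg4, Susd5 and Nrip2, 2 macrophage, 11 annulus and tendon, 2 nucleus pulposus and chondrocyte and 13 neighbouring genes. With a mean of at least 5 TPM, which tests fewer genes, they were 628 of all genes, 3 connexins, 2 intermediate filament, 0 endothelial, 0 skeletal muscle, 2 annulus and tendon and 0 neighbouring genes. A pseudocount of 0.1, which raises the fold of low genes, gave 1438 calls over all genes in place of 1005. The other mural cell genes then had 14 calls, 9 higher and 5 lower, in place of 10. Also called with it were 1 relative of Mcam, Cspg4, Susd5 and Nrip2 and 2 neighbouring genes. After median-ratio scaling 0 neighbouring genes were called, and after quantile normalization 0. Called skeletal muscle genes ranged from 0 to 2 without 1 sample, 2 being reached without Lv-Ctrl replicate 2, where Acta1 was called higher beside the fall of Mb. The share of higher genes among all calls was 64.1%, against 52.3% after median-ratio and 48.8% after quantile scaling. The Sync log2 fold change, 0.05 on the deposited values, changed sign at -0.10 after median-ratio scaling, -0.12 after quantile normalization and -0.00092 without Lv-Ctrl replicate 3, and Pdgfrb at -0.01 after median-ratio scaling, none of them called. The cause of these changes was not tested. With the replicate number as a block, 1004 genes were called in place of 1005. Same-numbered samples did not deviate together (correlations -0.0576 to -0.0124 over genes), so no pairing by number was visible. The paper describes 4 biological repeats given either treatment. These correlations cannot show whether same-numbered samples shared an isolation.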
